A study of Mus musculus with 40 samples.

Results

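The genes described here encode complex I of the respiratory chain, taken as every gene whose platform symbol starts with Nduf and that had a probe detected in liver (detection p under 0.01 on 4 or more of the 34 signal columns used). The platform annotation held 40 such symbols, and 39 of them, among 7958 measured genes, met the rule. The probe of Ndufs1, a core subunit of the matrix arm, was detected on 0 of the 34 columns, so Ndufs1 was not measured. By role, the 39 were 5 core subunits (Ndufv1, Ndufv2, Ndufs3, Ndufs7 and Ndufs8), 10 accessory subunits of the matrix arm, 17 accessory subunits of the membrane arm and 5 assembly factors. The other two were Ndufa4, now assigned to complex IV, and Ndufs5-ps, a transcribed pseudogene of Ndufs5. Of the 39, 38 were detected on all 34 columns and Ndufaf3 on 33, so the filter removed only Ndufs1.

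Complex I is the NADH:ubiquinone oxidoreductase of the inner mitochondrial membrane. It takes electrons from NADH, passes them along iron-sulfur clusters to ubiquinone, and uses the energy to pump protons. Its matrix arm holds the NADH-oxidising and ubiquinone-reducing modules, its membrane arm pumps the protons, and accessory subunits and assembly factors surround or build this core. The core of the membrane arm is encoded in mitochondrial DNA and had no probe among those used here. In liver the complex reoxidises the NADH made by fatty acid oxidation and the citric acid cycle.

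Liver RNA came from male C57BL/6J mice, with 1 array per sample and 40 arrays in 6 groups. In all groups arrival was at 6 weeks of age. The mice ate, from 5 months of age, either the NIA diet (sucrose giving 7.6% and fat 17.7% of its energy, at 3.418 kcal per g) or the purified, sucrose-rich WIS diet (46% and 24.4%, at 3.927 kcal per g). On each diet they were fed ad libitum (AL), under 30% caloric restriction (CR) or as meal-fed mice (MF). The NIA diet had 5 AL, 9 CR and 6 MF arrays, and the WIS diet had 6 AL, 10 CR and 4 MF arrays. CR and MF mice received a daily portion at 3 pm, fixed from 14 months of age, and per the labels the MF-NIA portion matched the calories eaten by the AL-WIS and MF-WIS mice. Food was put on the floor of the cage for CR mice and in the hopper for AL and MF mice, so place of feeding and restriction cannot be told apart. The labels give neither age nor hour at collection.

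Levels below are the deposited scores, which have mean 0 and SD 1 on each array, multiplied by 1.51 to bring them to log2 units, with 0 at the array's mean over all probes. A value is therefore a level relative to the other transcripts of the same liver, and differences between groups are log2 differences of the group means with their standard errors from limma. The adjusted p is Benjamini-Hochberg over all 7958 genes, with a threshold of 0.05. In whole liver, fewer cells of a type and less RNA per cell cannot be told apart.

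A set of 3 libraries stood apart, each picked from these same data and on a different ground. AL-WIS replicate 1 lay at 82.1 on the first principal component of all measured genes, which held 30.5% of the variance, while the next library, MF-NIA replicate 4, lay at 21.4. Its macrophage markers averaged 3.59 log2 units above, its neutrophil markers 2.73 above and its hepatocyte markers 1.16 below (-1.16) the mean of all libraries. The scores of CR-NIA replicate 1 matched none of the CR-NIA signal columns within 0.01, whereas those of the 34 other libraries with columns of their group matched one. The signal table held 8 CR-NIA columns for 9 samples and 6 AL-NIA columns for 5 samples, so this label may be wrong. Its scores were not compared with the AL-NIA columns. CR-NIA replicate 1 lay at 11.1 on the first principal component. The other CR-NIA libraries lay between -20.2 and -9.33 there, and the AL-NIA libraries between -6.01 and 17.7. Whether the label is wrong was not tested, and the library was kept in the group that the label gives. MF-WIS replicate 4 had endothelial markers 0.98 below that mean (-0.98). Of the marker lists, 9 of 10 hepatocyte genes (all but Tat) were measured in these livers, and 1 of 6 cholangiocyte and 2 of 9 lymphocyte genes. None of those cholangiocyte or lymphocyte genes passed in any of the 9 comparisons in limma, with 1 and 1 at an unadjusted p under 0.05 for CR-WIS against AL-WIS. MF-NIA replicate 4, not counted among the 3, had neutrophil markers at 2.0 and macrophage markers at 0.94 above the mean of all libraries, and the lowest complex I mean of its group, 3.40. Several results that rest on these libraries are given with and without them. Other differences are given with all libraries only. Among these are Ndufs6 and Ndufv2 on the WIS diet, where AL-WIS replicate 1 was the lowest library of its group.

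Promoters of 6 of the called members are shown first, without Ndufs7, whose call for CR-WIS against AL-WIS held in every setting. These 6 genes were chosen after their values were seen: Ndufv2, Ndufs6 and Ndufb10 differed between restricted and meal-fed mice of the NIA diet under every setting tried, Ndufs4 and Ndufa8 differed between the restricted mice of the 2 diets, in opposite directions, under every setting tried, and Ndufaf4 was the assembly factor that rose under restriction. Each line gives the 300 bases from RefSeq (GRCm38.p6), 5′ to 3′ in the direction of the gene, of which the last 50 follow the annotated start. Capitals mark the letters of NRF1 (GCGCANGCG), ETS (CCGGAAG), YY1 (AAGATGG), ERRA (AAGGTCA) or SP1 (GGGCGG) sites on either strand. The windows lie at chr17:66101510-66101809, minus strand (Ndufv2), chr13:73328433-73328732, minus strand (Ndufs6), chr17:24724374-24724673, minus strand (Ndufb10), chr13:114388045-114388344, minus strand (Ndufs4), chr2:36049289-36049588, minus strand (Ndufa8) and chr4:24897833-24898132, plus strand (Ndufaf4).
Ndufv2: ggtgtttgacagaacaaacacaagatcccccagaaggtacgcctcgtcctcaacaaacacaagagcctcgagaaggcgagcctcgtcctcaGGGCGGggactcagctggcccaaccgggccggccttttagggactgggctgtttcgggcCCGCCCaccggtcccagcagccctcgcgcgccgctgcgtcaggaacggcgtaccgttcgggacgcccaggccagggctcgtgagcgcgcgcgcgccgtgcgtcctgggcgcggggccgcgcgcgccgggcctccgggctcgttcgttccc
Ndufs6: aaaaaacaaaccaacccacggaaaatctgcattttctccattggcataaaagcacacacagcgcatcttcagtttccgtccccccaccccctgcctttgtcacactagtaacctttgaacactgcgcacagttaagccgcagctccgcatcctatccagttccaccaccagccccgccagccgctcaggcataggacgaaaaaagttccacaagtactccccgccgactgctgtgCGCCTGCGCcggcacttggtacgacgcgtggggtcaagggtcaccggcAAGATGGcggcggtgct
Ndufb10: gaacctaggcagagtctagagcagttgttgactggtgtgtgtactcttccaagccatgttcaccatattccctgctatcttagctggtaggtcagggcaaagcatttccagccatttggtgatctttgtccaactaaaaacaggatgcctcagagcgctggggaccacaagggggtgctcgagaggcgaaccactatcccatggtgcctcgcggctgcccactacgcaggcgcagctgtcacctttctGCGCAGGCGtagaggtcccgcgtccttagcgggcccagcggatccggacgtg
Ndufs4: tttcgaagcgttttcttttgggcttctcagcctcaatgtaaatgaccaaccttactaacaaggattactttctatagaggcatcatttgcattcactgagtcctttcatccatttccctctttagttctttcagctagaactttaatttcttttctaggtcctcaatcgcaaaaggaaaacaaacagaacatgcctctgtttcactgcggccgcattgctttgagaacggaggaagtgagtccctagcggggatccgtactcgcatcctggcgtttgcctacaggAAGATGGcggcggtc
Ndufa8: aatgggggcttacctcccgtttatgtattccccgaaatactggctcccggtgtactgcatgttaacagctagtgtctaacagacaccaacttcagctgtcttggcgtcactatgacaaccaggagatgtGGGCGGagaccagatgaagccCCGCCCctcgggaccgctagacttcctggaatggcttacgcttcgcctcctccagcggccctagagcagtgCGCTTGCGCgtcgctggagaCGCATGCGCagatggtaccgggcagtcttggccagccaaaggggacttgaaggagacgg
Ndufaf4: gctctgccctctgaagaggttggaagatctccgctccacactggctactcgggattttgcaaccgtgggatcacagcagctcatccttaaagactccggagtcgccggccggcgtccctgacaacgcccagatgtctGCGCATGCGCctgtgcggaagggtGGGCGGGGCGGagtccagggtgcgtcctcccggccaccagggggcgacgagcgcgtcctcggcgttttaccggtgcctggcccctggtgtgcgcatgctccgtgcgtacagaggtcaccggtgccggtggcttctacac

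In these windows the NRF1 letters, those of a factor known to drive many nuclear genes of the respiratory chain, began 29 and 9 bases before the start of Ndufa8, 15 bases before that of Ndufs6 and 2 bases before that of Ndufb10. In Ndufaf4 the letters read the same on both strands, so that 2 overlapping matches began 113 and 112 bases before the start. The YY1 letters began 33 bases after the start of Ndufs6 and 35 bases after that of Ndufs4. Ndufv2 held the SP1 letters at 159 and 100 bases before the start and none of the other motifs. Over all members, 36 of the 39 had a window in the table and 2 of them had a pair, which gave 38 windows; Ndufa2, Ndufb9 and Ndufs5-ps had none. The NRF1 letters stood in 9 of the 38 windows (23.7%, against 6.25% of all 32851 windows), in Ndufa5, Ndufa6, Ndufa8, Ndufaf4, Ndufaf5, Ndufb10, Ndufb4 and Ndufs6. The YY1 letters stood in 7 windows (18.4% against 6.34%), the ETS letters in 5 (13.2% against 8.86%), the ERRA letters in 2 (5.26% against 4.72%) and the SP1 letters in 20 (52.6% against 35.7%). A match is only a description of the sequence.

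The mean level of the 39 genes per library gives the overall picture. On the NIA diet it lay between 3.58 and 3.80 in AL mice, between 3.64 and 4.01 in CR mice and between 3.40 and 3.70 in MF mice. On the WIS diet it lay between 2.99 and 3.78 in AL mice, between 3.65 and 3.95 in CR mice and between 3.48 and 3.71 in MF mice. The group means were 3.64 ± 0.09 (SD, n = 5), 3.84 ± 0.12 (n = 9) and 3.58 ± 0.11 (n = 6) on the NIA diet and 3.55 ± 0.30 (n = 6), 3.77 ± 0.09 (n = 10) and 3.54 ± 0.11 (n = 4) on the WIS diet. Both CR groups thus had the highest means of their diet, and the ranges of CR and AL mice overlapped on each diet. The lowest CR-NIA library was replicate 1 and the lowest AL-WIS library was replicate 1.

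**Figure D1:**
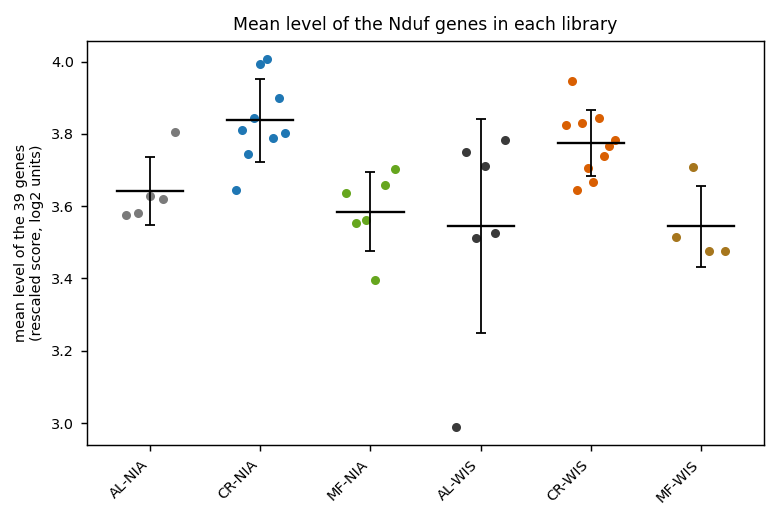
Mean level of the 39 Nduf genes in each library (points; rescaled score, log2 units), by group; black lines are group means and bars are SD. The CR-NIA and CR-WIS groups have the highest means, 3.84 and 3.77, and AL-WIS replicate 1 lies lowest of all, at 2.99.

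Restriction on the NIA diet raised 8 of the 39 genes against ad libitum feeding (4.80% of all genes tested were higher and 6.32% lower). These were Ndufv2 of the NADH module, the matrix-arm accessory subunits Ndufa2, Ndufa5, Ndufs4 and Ndufs6, and the membrane-arm subunits Ndufa1, Ndufb4 and Ndufc2. By role, 1 of 5 core subunits, 4 of 10 accessory subunits of the matrix arm and 3 of 17 of the membrane arm passed. Of the 5 assembly factors 0 passed, and 3 had an unadjusted p under 0.05 in limma, in either direction. The median over these 5 was -0.11, and 2 of them were above 0. The median log2 difference over the 39 was 0.21, against -0.01 over all genes, and 28 of the 39 were above 0.

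Ndufv2, which carries an iron-sulfur cluster beside the NADH-binding subunit, had levels of 4.67, 4.70, 4.57, 4.76 and 4.77 in the AL-NIA mice and a lowest, median and highest level of 4.65, 5.31 and 5.62 in the CR-NIA mice. In 8 of the 9 CR mice it lay above every AL mouse, and the exception was replicate 1. The difference was 0.54 ± 0.11 (SE; 1.45-fold; adjusted p = 0.00178), and 0.61 without replicate 1. On the WIS diet it was 0.21 ± 0.10 (adjusted p = 0.163), with levels of 4.21, 4.74 and 4.92 in AL and of 4.62, 4.88 and 5.00 in CR mice.

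Ndufa2, an accessory subunit of the NADH module with a thioredoxin-like fold, had levels of 4.85, 4.39, 4.76, 4.89 and 4.97 in the AL-NIA mice and of 4.98, 5.33 and 5.53 (lowest, median, highest) in the CR-NIA mice. The 2 groups did not overlap, and the difference was 0.48 ± 0.12 (1.40-fold; adjusted p = 0.00786). Ndufa5, an accessory subunit of the ubiquinone module, did not overlap either, with 3.93, 4.18, 4.09, 4.35 and 4.38 in AL-NIA against 4.39, 4.71 and 4.95 in CR-NIA. Its difference of 0.51 ± 0.16 (adjusted p = 0.0364) fell below the threshold without any 1 of 9 libraries, the highest adjusted p being 0.109. Its second, dimmer probe differed by 0.49 ± 0.19 (adjusted p = 0.0896 over all probes).

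Ndufb4, a membrane-arm subunit, showed the largest difference of the 39, 0.78 ± 0.20 (1.71-fold; adjusted p = 0.0113). Its levels were 1.52, 1.16, 1.57, 0.98 and 1.65 in the AL-NIA mice and 1.28, 2.14 and 2.76 in the CR-NIA mice, of which 8 of 9 lay above every AL mouse. Close copies of this gene exist in the mouse genome, so the transcript behind the probe is uncertain. The call was lost without AL-NIA replicate 4 (adjusted p = 0.0544). Ndufs6, a zinc-binding subunit of the matrix arm, differed by 0.61 ± 0.18 (adjusted p = 0.0255), with 5.12, 5.19, 5.10, 5.30 and 5.65 in AL-NIA and 5.31, 5.77 and 6.63 in CR-NIA, and lost the call without any 1 of 6 libraries (adjusted p up to 0.0646). On the WIS diet it differed by 0.46 ± 0.17 (adjusted p = 0.0599), with 4.65, 5.19 and 5.71 in AL and 5.13, 5.63 and 6.07 in CR mice. Close copies exist for Ndufs6, Ndufa12, Ndufab1 and Ndufs5-ps as well, with the same uncertainty.

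Ndufs4, a matrix-arm subunit whose loss causes Leigh syndrome in humans, lay at 4.20, 4.47, 4.26, 4.32 and 4.21 in the AL-NIA mice and at 4.26, 4.67 and 4.80 in the CR-NIA mice, a difference of 0.34 ± 0.10 (adjusted p = 0.0177). All 4 of its probes were higher under restriction, by 0.34 to 0.65, and 3 of the 4 passed over all probes. Ndufa1, a small X-linked subunit where the arms meet, differed by 0.42 ± 0.12 (adjusted p = 0.0169) and lost the call without AL-NIA replicate 2, its lowest library at 4.44. Ndufc2 differed by 0.37 ± 0.12 (adjusted p = 0.0416) and lost it without any 1 of 10 libraries.

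Without CR-NIA replicate 1, 13 members were higher and 1 lower, while 8.12% of all genes were then higher and 9.75% lower. The member that was lower in that fit was Ndufaf3, an assembly factor of the ubiquinone module, at -0.36 ± 0.12 (adjusted p = 0.0393), and those gained as higher were Ndufa13, Ndufaf4, Ndufb2, Ndufb3 and Ndufb8. In the fit with all libraries, 0 of 9 macrophage markers passed (4 had an unadjusted p under 0.05 in limma), with a median difference of -0.86. Their mean per library, relative to all libraries, ran from -0.31 to 0.88 in AL-NIA and from -0.96 to 0.50 in CR-NIA. The 0.50 was that of CR-NIA replicate 1, and the next highest CR-NIA value was -0.19. Their part in the result was not tested. Hepatocyte markers differed by a median of 0.01 with all libraries.

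On the WIS diet, restriction raised 9 of the 39 genes against ad libitum feeding (6.55% of all genes were higher and 7.77% lower). They were the core subunits Ndufs7, Ndufs3 and Ndufv1, the matrix-arm subunits Ndufa12, Ndufa5 and Ndufs4, the membrane-arm subunits Ndufa8 and Ndufa10, and the assembly factor Ndufaf4. The median over the 39 was 0.26 against -0.01 for all genes, and 36 of the 39 were above 0. Ndufa5 and Ndufs4 were called on both diets, which is 2 of the 8 on the NIA diet and 2 of the 9 on the WIS diet. The diets share no arrays in this comparison. Of the 4 Ndufs4 probes, the 3 not used for the gene differed by 0.12 to 0.25 on the WIS diet and did not pass over all probes.

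This count rested on 1 library, and it was 1 in a fit of the CR-WIS and AL-WIS arrays alone. Without AL-WIS replicate 1, 1 member (Ndufs7) passed, 2.69% of all genes were higher and 2.63% lower, and the median over the members was 0.14 with 30 of 39 above 0. In that refit the other 8 had differences of 0.16 to 0.64 and adjusted p-values of 0.0567 to 0.218. With AL-WIS replicate 1 present, 8 of 9 macrophage markers, 3 of 6 neutrophil markers and 6 of 9 stellate markers passed as lower under restriction, and 0 of 9 hepatocyte markers passed (1 had an unadjusted p under 0.05 in limma), although all 9 were above 0 with a median of 0.28, near the 0.26 of the complex I genes. The macrophage mean per library ran from -0.14 to 3.59 in AL-WIS and from -0.79 to 0.74 in CR-WIS. Cd68, Csf1r and Cd5l of the macrophage list and Ly6g and Ngp of the neutrophil list were not measured. The part of these cells in the result was not tested.

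Ndufs7, the subunit that holds the last iron-sulfur cluster before ubiquinone, had levels of 3.65, 4.09 and 4.18 (lowest, median, highest) in AL-WIS and of 4.06, 4.43 and 4.73 in CR-WIS. In 9 of 10 CR mice it lay above every AL mouse, with a difference of 0.44 ± 0.10 (1.36-fold; adjusted p = 0.0070), and of 0.37 ± 0.10 (adjusted p = 0.0315) without AL-WIS replicate 1. On the NIA diet it did not separate the groups, with 4.21, 4.45, 4.30, 4.20 and 4.51 in AL and 4.03, 4.32 and 4.60 in CR mice, a difference of -0.00 ± 0.11.

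Ndufaf4, which with Ndufaf3 works in the early assembly of the ubiquinone module, had levels of 1.12, 1.23 and 2.07 in AL-WIS and of 1.13, 2.27 and 2.64 in CR-WIS. Of the 10 CR mice, 7 lay above every AL mouse, and the other 3, at 1.13, 1.36 and 1.93, lay within the AL range. The difference was 0.70 ± 0.19 (1.63-fold; adjusted p = 0.0170), and 0.64 (adjusted p = 0.0567) without AL-WIS replicate 1. On the NIA diet it was 0.55 ± 0.21 (adjusted p = 0.0866), with 2.26, 1.19, 1.78, 1.60 and 2.10 in AL and 1.86, 2.31 and 2.70 in CR mice. Among the other assembly factors, Ndufaf3 differed by -0.31 and -0.22 and Ndufaf7 by -0.21 and -0.03 on the NIA and WIS diets, none past the threshold.

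Ndufa8, a membrane-arm subunit on the intermembrane-space face, lay at 3.90, 4.31 and 4.63 in AL-WIS and at 4.29, 4.67 and 4.94 in CR-WIS, a difference of 0.35 ± 0.09 (adjusted p = 0.0138). Without AL-WIS replicate 1 it was 0.27 ± 0.09 (adjusted p = 0.0709). Ndufa10, a matrix-facing subunit of the membrane arm, differed by 0.32 ± 0.10 (adjusted p = 0.0272), with levels of 3.58, 4.24 and 4.54 in AL-WIS and of 4.18, 4.53 and 4.76 in CR-WIS, and by 0.20 without that library. Ndufv1, which binds NADH, and Ndufs3, at the root of the ubiquinone module, differed by 0.39 and 0.36 with it and by 0.26 and 0.20 without it.

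**Figure D2:**
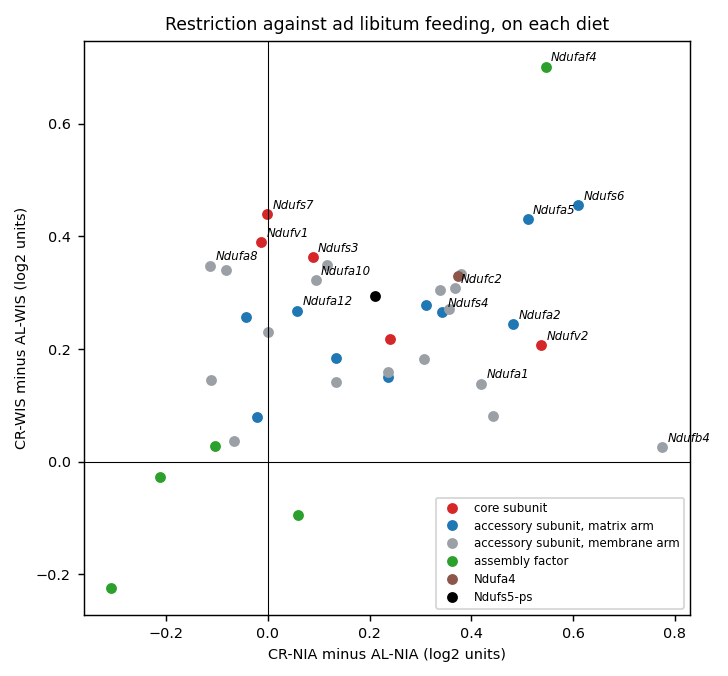
Log2 difference of restricted against ad libitum mice for each of the 39 genes, on the NIA diet (x axis) and on the WIS diet (y axis); colours give the role and names mark genes past the threshold on either diet. Most genes lie above 0 on both axes, Ndufb4 and Ndufv2 lie to the right, Ndufs7 and Ndufv1 lie near 0 on the x axis, and 3 of the 5 assembly factors lie below 0 on the y axis.

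The set of genes called on only one diet was not shown to differ between the diets. The interaction of restriction and diet had 0 called members in limma (6 with an unadjusted p under 0.05) and 0.0377% of all genes. The smallest values were those of Ndufa8, 0.46 ± 0.14 (adjusted p = 0.206), and Ndufs7, 0.44 ± 0.15 (adjusted p = 0.291), both larger on the WIS diet. The dimmer probe of Ndufa8 had an interaction of 0.58 ± 0.13 (adjusted p = 0.0848 over all probes). Without the 3 libraries that stood apart, 2 members passed, both with a larger response on the NIA diet: Ndufb4 (-1.0 ± 0.25, adjusted p = 0.0304) and Ndufv2 (-0.49 ± 0.12, adjusted p = 0.0320). For these genes CR-NIA replicate 1 was the lowest CR-NIA library (1.28 and 4.65) and AL-WIS replicate 1 the lowest AL-WIS library (1.40 and 4.21). Leaving out either could only move the interaction that way, so these calls depend on the choice of libraries. The interaction of meal feeding and diet had 0 called members (3 with an unadjusted p under 0.05) and 0% of all genes, with Ndufa10 (0.47 ± 0.17, adjusted p = 0.468) and Ndufb4 (-0.76 ± 0.32, adjusted p = 0.510) smallest in p.

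Against meal-fed mice, restriction on the NIA diet raised 14 of the 39 genes (5.79% of all genes were higher and 9.54% lower), the largest count of the 9 comparisons. Each daily portion was given at the same hour in these 2 groups, which share the CR-NIA arrays with the comparison above. The 14 were the core subunits Ndufv2, Ndufs7 and Ndufs8, the matrix-arm subunits Ndufa2, Ndufa6, Ndufs4 and Ndufs6, the membrane-arm subunits Ndufa1, Ndufa13, Ndufb3, Ndufb8, Ndufb10 and Ndufc2, and Ndufa4 of complex IV. The median over the 39 was 0.29 against -0.06 for all genes, and 33 were above 0. None of the 5 assembly factors passed, and 1 of them had an unadjusted p under 0.05 in limma.

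Ndufv2 lay at 4.39, 4.60 and 4.71 (lowest, median, highest) in MF-NIA, and 8 of the 9 CR-NIA mice lay above every MF mouse. Its difference of 0.64 ± 0.10 (1.56-fold; adjusted p = 0.000112) was the smallest in p, and it was 0.71 without CR-NIA replicate 1. Ndufs6 lay at 4.70, 5.13 and 5.53 in MF-NIA and differed by 0.77 ± 0.17 (1.70-fold; adjusted p = 0.0022). Ndufb10, a membrane-arm subunit on the intermembrane-space side, lay at 1.99, 2.51 and 2.75 in MF-NIA and at 2.66, 3.20 and 3.41 in CR-NIA, and differed by 0.67 ± 0.15 (1.59-fold; adjusted p = 0.0026).

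The MF-NIA mice were also the lowest NIA group in Ndufb10. The AL-NIA mice had 2.93, 2.72, 3.05, 2.88 and 3.32, and MF-NIA differed from them by -0.55 ± 0.17 (adjusted p = 0.0808). Ndufs7 likewise differed by -0.34 ± 0.12 (adjusted p = 0.127), with levels of 3.65, 4.01 and 4.26 in MF-NIA. Ndufa13 and Ndufa6, subunits of the membrane and matrix arms, differed between CR-NIA and MF-NIA by 0.58 ± 0.14 (adjusted p = 0.0037) and 0.60 ± 0.14 (adjusted p = 0.0041).

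Quantile normalization of the scores moved this comparison most, to 5 higher and 1 lower, with 6.80% of all genes higher and 4.45% lower. The median over the 39 was then 0.17, against 0.02 for all genes. With neqc of the signals there were 8 higher and 1 lower, with 9.49% of all genes higher and 6.48% lower. The medians with neqc were 0.20 over the 39 and 0.03 over all genes. The lower member was Ndufc1, a small membrane-arm subunit, in both settings (-0.32 and -0.35). Ndufv2, Ndufs6 and Ndufb10 kept their calls in every setting and without any single library. Without CR-NIA replicate 1 the counts were 15 higher and 1 lower, the lower one being Ndufaf7 at -0.28. Without MF-NIA replicate 4 they were 10 higher and 1 lower, again Ndufaf7 at -0.28 (adjusted p = 0.0480), and the median over the 39 was 0.23. With all libraries, hepatocyte markers had 1 of 9 higher (Apoa1) and 7 of 9 above 0. Their median was 0.22, with 4 at an unadjusted p under 0.05 in limma. Endothelial markers had 1 of 8 lower (Pecam1) and a median of -0.23. Macrophage (0 of 9), neutrophil (0 of 6) and stellate markers (0 of 9) did not pass, with medians of -0.33, -0.30 and -0.19 and with 1, 1 and 2 at an unadjusted p under 0.05 in limma. Their part in the result was not tested.

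On the WIS diet, 1 member, Ndufaf4, was higher in restricted than in meal-fed mice (1.36% of all genes were higher and 2.01% lower). The MF-WIS mice had levels of 1.24, 1.68, 1.42 and 0.98, 8 of the 10 CR-WIS mice lay above all of them, and the difference was 0.79 ± 0.22 (1.73-fold; adjusted p = 0.0413). It lost the call without MF-WIS replicate 4 (adjusted p = 0.171) or without any 1 of 10 further libraries. The median over the 39 was 0.24 and 33 were above 0. Ndufb10 (0.55 ± 0.17, adjusted p = 0.0624) and Ndufs7 (0.37 ± 0.12, adjusted p = 0.0628) came next, Ndufb10 with no overlap between the groups, and both passed without the 3 libraries that stood apart, at 0.59 and 0.45. Ndufv2, at 4.59, 4.65, 4.73 and 4.65 in MF-WIS, differed by 0.22 ± 0.12 (adjusted p = 0.304).

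**Figure D3:**
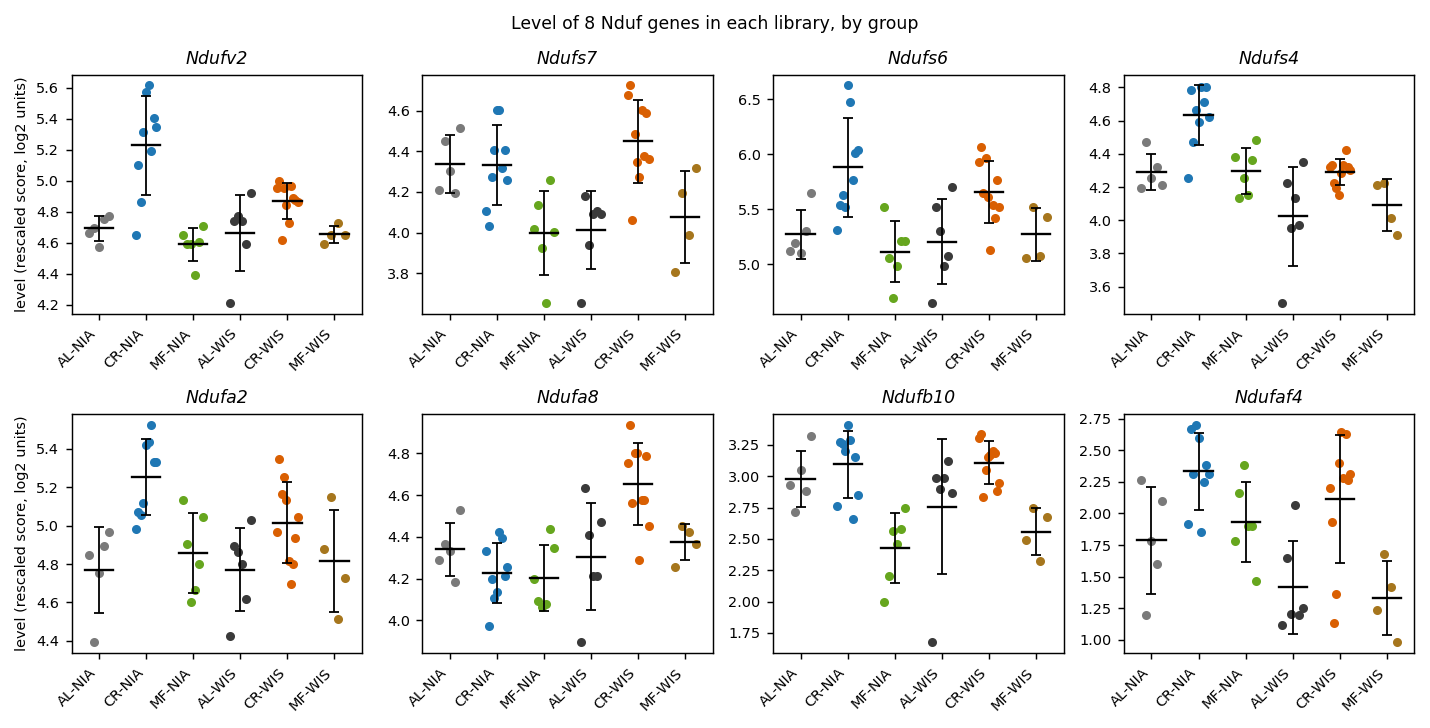
Level of 8 Nduf genes in each library (points; rescaled score, log2 units), by group; black lines are group means and bars are SD, and each panel has its own y axis. Ndufv2 is high in 8 of 9 CR-NIA libraries, Ndufa8 in the CR-WIS libraries, Ndufb10 is low in the MF groups and in AL-WIS replicate 1, and Ndufaf4 is split within CR-WIS.

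Meal feeding against ad libitum feeding gave 0 called members on the NIA diet in limma (2 with an unadjusted p under 0.05, the Ndufb10 and Ndufs7 given above), where 1.96% of all genes passed in either direction. On the WIS diet it gave 0 (2 with an unadjusted p under 0.05), where 0.0377% of all genes passed. The medians over the 39 were -0.06 and 0.02, and single members ran from -0.55 to 0.42 and from -0.33 to 0.35. Ndufa10 had the smallest p on the WIS diet, 0.35 ± 0.12 (adjusted p = 0.195), with levels of 4.39, 4.62, 4.60 and 4.59 in MF-WIS.

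Between the diets, 4 members differed under restriction and none passed under the other regimens. In restricted mice, Ndufa8 was higher on the WIS diet and Ndufs4, Ndufa1 and Ndufv2 were lower (1.50% of all genes were higher and 1.31% lower). Ndufa8 lay at 3.97, 4.21 and 4.42 in CR-NIA and at 4.29, 4.67 and 4.94 in CR-WIS, where 9 of 10 mice lay above every CR-NIA mouse. Its difference was 0.43 ± 0.08 (1.34-fold; adjusted p = 0.0031), and its second probe differed by 0.47 ± 0.08 (adjusted p = 0.0008 over all probes). The level in AL-NIA mice was 4.29, 4.36, 4.33, 4.18 and 4.53, and in MF-WIS mice 4.26, 4.45, 4.42 and 4.36.

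Ndufs4 lay at 4.15, 4.31 and 4.42 in CR-WIS, and 8 of 9 CR-NIA mice lay above every CR-WIS mouse, a difference of -0.34 ± 0.08 (adjusted p = 0.0123). All 4 of its probes were lower in CR-WIS, by -0.39 to -0.32, and 2 of the 4 passed over all probes. The tested probe was also lower on the WIS diet in AL (-0.27 ± 0.10) and MF mice (-0.20 ± 0.11), neither past the threshold. Its other probes differed by -0.03 to 0.02 in AL and by -0.18 to -0.12 in MF mice. Ndufa1 differed by -0.38 ± 0.10 (adjusted p = 0.0210), with 4.97, 5.22 and 5.53 in CR-NIA and 4.62, 4.90 and 5.12 in CR-WIS. Ndufv2 differed by -0.36 ± 0.09 (adjusted p = 0.0218), and 7 of 9 CR-NIA mice lay above every CR-WIS mouse. The calls of Ndufa8 and Ndufs4 held in every setting and without any single library, that of Ndufv2 was lost without either of 2 libraries (adjusted p up to 0.0559), and that of Ndufa1 was lost under quantile normalization. The median over the 39 was -0.09.

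Under ad libitum feeding, AL-WIS against AL-NIA gave 0 called members in limma (4 with an unadjusted p under 0.05) and 0.0251% of all genes. The median over the 39 was -0.12, and -0.02 without AL-WIS replicate 1. Ndufb4 came nearest, at 0.74 ± 0.22 (adjusted p = 0.191), with 1.40, 2.18 and 2.87 in AL-WIS, and it passed at 0.88 (adjusted p = 0.0416) without the 3 libraries that stood apart. Under meal feeding, MF-WIS against MF-NIA gave 0 called members (4 with an unadjusted p under 0.05) and 0% of all genes, with a median of -0.04.

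**Figure D4:**
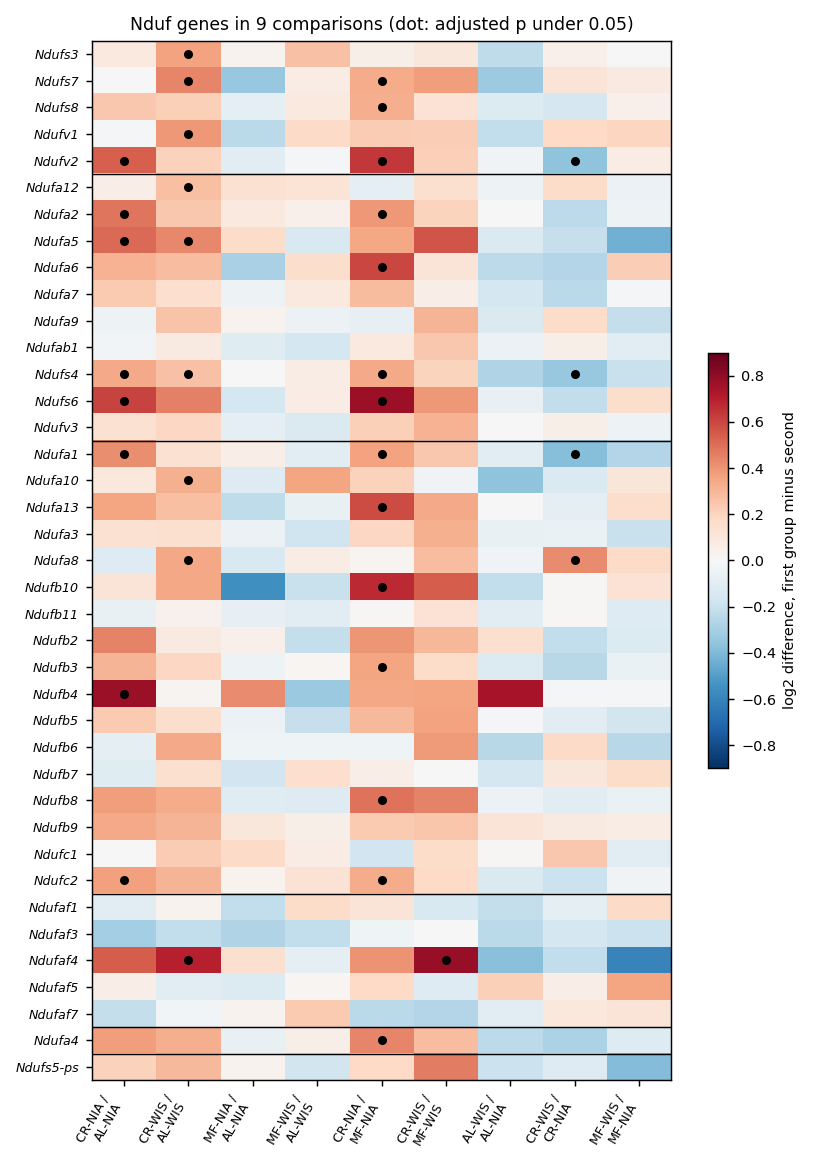
Log2 difference of the 39 genes (rows, grouped by role: core, matrix arm, membrane arm, assembly factors, Ndufa4, Ndufs5-ps) in the 9 comparisons (columns); red is higher and blue lower in the first group, and dots mark an adjusted p under 0.05. The dots lie in the columns with a restricted group: 8, 9, 14 and 1 against AL or MF mice, and 4 between the diets.

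Over the 9 comparisons, 22 members were called at least once and 17 never, which made 36 calls. Ndufs4 was called in 4 comparisons and Ndufa1 and Ndufv2 in 3. Of the 36 calls, 8 held in every setting and without any single library: Ndufv2 and Ndufa2 for CR-NIA against AL-NIA, Ndufs7 for CR-WIS against AL-WIS, Ndufv2, Ndufs6 and Ndufb10 for CR-NIA against MF-NIA, and Ndufa8 and Ndufs4 between the restricted groups. Members never called included Ndufa9 and Ndufab1, the mitochondrial acyl carrier protein, and 4 of the 5 assembly factors.

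For 31 members 1 probe passed the detection rule and for 8 several did. The probes differed in call for Ndufa5 and Ndufs4, given above, and for Ndufv3, a matrix-arm subunit. In CR-NIA against MF-NIA its 2 brighter probes differed by 0.22 and 0.15 and did not pass, while a dim probe near the array mean differed by -0.29 ± 0.07 (adjusted p = 0.0051 over all probes). The tested probe of Ndufv3 lay at 4.50, 4.27, 4.53, 4.65 and 4.71 in AL-NIA, with a median of 4.50 in CR-NIA and 4.51 in MF-NIA. The transcripts behind the single probes were not identified here.

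**Figure D5:**
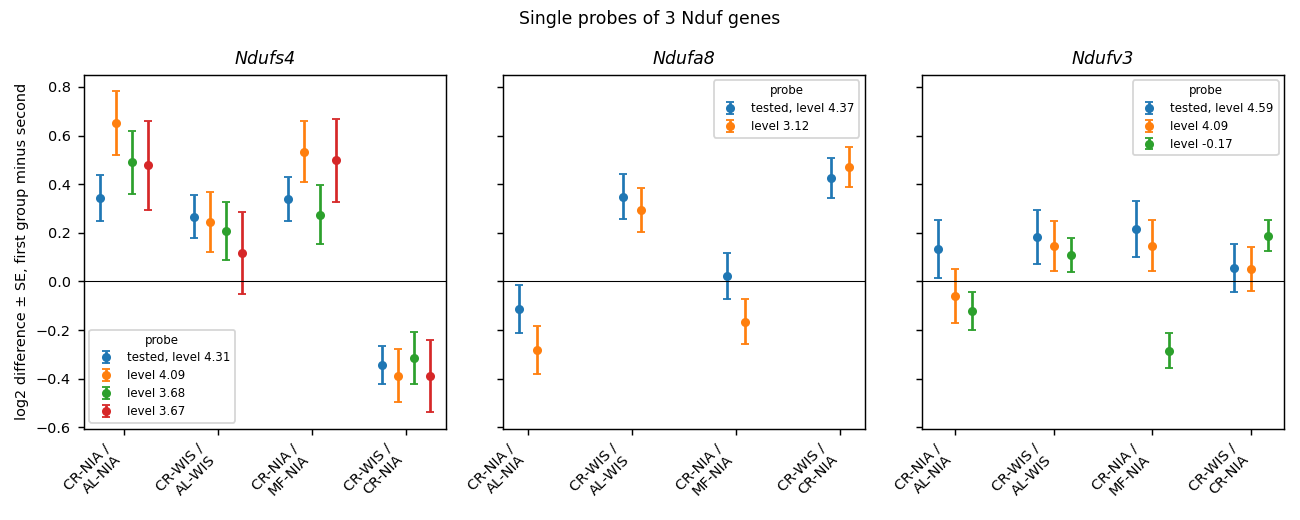
Log2 difference with its standard error for each passing probe of Ndufs4, Ndufa8 and Ndufv3 in 4 comparisons; the legend gives each probe's mean level and which probe was tested. All Ndufs4 probes are above 0 in the first 3 comparisons and below 0 in CR-WIS against CR-NIA, both Ndufa8 probes are above 0 in CR-WIS against CR-NIA, and the dim Ndufv3 probe lies at -0.29 in CR-NIA against MF-NIA.

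Other genes of the respiratory chain gave similar counts. Of 35 measured subunits of complexes II to V, 5 were higher for CR-NIA against AL-NIA, 8 for CR-WIS against AL-WIS and 15 for CR-NIA against MF-NIA, with medians of 0.22, 0.28 and 0.32. In the 6 other comparisons 0 passed in limma, with 11, 6, 4, 4, 3 and 1 members at an unadjusted p under 0.05. Cox7c of complex IV was higher in all 3 (0.53, 0.40 and 0.55), and Cyc1 of complex III, cytochrome c1, in CR-WIS against AL-WIS (0.50 ± 0.11, adjusted p = 0.0058). These counts are descriptions and no difference between the complexes was tested.

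Among 7 measured assembly factors without an Nduf symbol, Tmem126b, a partner of Ndufaf1, was higher in CR-NIA than in AL-NIA (0.70 ± 0.18, adjusted p = 0.0104). Acad9 and Tmem186, which act in the same membrane-arm assembly, were lower in CR-NIA than in MF-NIA (-0.33 and -0.23, adjusted p = 0.0411 and 0.0401). Of 7 measured regulators of mitochondrial genes, Esrra, a nuclear receptor of respiratory genes, was higher in all 4 comparisons of restricted with AL or MF mice (0.80, 0.63, 0.53 and 0.86), and its coactivator Ppargc1b was higher in both comparisons with AL mice (0.74 and 0.82). Over the 7 regulators the median was 0.03 for CR-NIA against AL-NIA and 0.14 for CR-WIS against AL-WIS, with 4 and 5 above 0. Against MF mice it was 0.02 on the NIA diet and 0.08 on the WIS diet, again with 4 and 5 above 0. The ERRA letters stood in windows of Ndufb2 and Ndufb4 alone among the members, and a link to Esrra was not tested. Of 5 measured genes of mitochondrial content, 2 were higher and 1 lower for CR-NIA against AL-NIA, 2 were higher for CR-WIS against AL-WIS and 2 were higher for CR-NIA against MF-NIA, with medians of 0.31, 0.22 and 0.18. The channel gene Vdac1 was higher in all 3 (0.43, 0.45 and 0.31), Tomm22 of the protein import pore in both comparisons on the NIA diet (0.32 and 0.27) and the chaperonin gene Hspd1 in CR-WIS against AL-WIS (0.35). Cs, citrate synthase, was lower in CR-NIA than in AL-NIA (-0.58 ± 0.15, adjusted p = 0.0101) and differed by -0.20 and -0.33 in the other two, which did not pass.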

How the data were processed

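Liver RNA of 40 mice was hybridised to expression arrays with Illumina probe identifiers, and the series text states more arrays than were analysed here. The authors deposited a value table with one score per probe, whose values have mean 0 and SD 1 on each array; how it was made is not given in the sources used here. They also deposited a signal table, which holds for each probe a linear intensity and, per the file headers, a detection p-value. GenomeStudio 2011.1 is named for it in the submitters' processing notes. Columns of the signal table carry a code and a group, with no sample title or replicate number. Of them, 34 were used for detection and for 1 alternative. The 6 AL-NIA columns were not used, since the labels give 5 samples. The 8 CR-NIA columns, for 9 samples, were used as columns of the group, and the sample without a matching column may carry a wrong label.

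Scores were multiplied by 1.51, the median SD of log2 intensity over the 34 columns. Of 25697 probes, 11334 had a detection p under 0.01 on 4 or more columns, and 10659 of these had 1 gene symbol (of all probes, 23978 had 1 symbol, 1719 none and 0 several). The brightest passing probe stood for each of 7958 genes. One limma fit (version 3.58.1, R 4.3.3) with 1 mean per group over all 40 arrays gave 9 comparisons and 2 interactions, with Benjamini-Hochberg adjustment over all genes. It was tested on simulated data. The number of arrays limits the precision. The labels call the arrays biological replicates and name no animal, and each array is counted here as 1 mouse. The p-values set the difference of group means against the spread between samples within groups, pooled over the 6 groups.

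The members and gene lists were chosen with earlier results of these data known. Values by sample are given for the 3 called members with the smallest adjusted p in each comparison, the 4 called most often, those whose probes differ in call, the 2 smallest p-values of each interaction, calls against the majority, Ndufv2 and Ndufs7. Marker lists covered hepatocyte, macrophage, neutrophil, stellate, endothelial, cholangiocyte and lymphocyte genes. All 39 members matched RefSeq gene names, and 36 a promoter window of RefSeq (GRCm38.p6). Figures were drawn with matplotlib.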

Additional observations from a re-analysis of the deposited data

Results flagged for a closer look

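Among 84 combinations of a group with the mean level of the 39 genes or with 1 of 13 named members, 5 had a single library far from the rest of its group, where chance alone gives about 5 percent. The mean level was 3.80 in AL-NIA replicate 5, above the other AL-NIA libraries, and 2.99 in AL-WIS replicate 1, below the other AL-WIS libraries. Ndufb10 was also low in AL-WIS replicate 1, at 1.68. Ndufa1 was low in AL-NIA replicate 2, at 4.44, and Ndufa10 was low in MF-WIS replicate 1, at 4.39. No member passed the test of a difference in response between the diets with all libraries.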

How the results depend on the processing

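The count of called members moved with the setting, and so did the share of all genes called. For CR-NIA against AL-NIA, 6.51% of all genes were higher and 5.52% lower with quantile normalization. In the main fit 4.80% were higher and 6.32% lower. With quantile normalization the median over the members was 0.15 for CR-NIA against AL-NIA and 0.17 for CR-WIS against AL-WIS. The medians over all genes were then 0.01 and 0.02. In the main fit the members had medians of 0.21 and 0.26. The counts below are of members only, so a rise or fall in them is not a result about complex I alone. For CR-NIA against AL-NIA (8) it was 5 with quantile normalization, 16 with array weights and 18 without the 3 libraries that stood apart. For CR-WIS against AL-WIS (9) it was 1 in a fit of the compared groups alone and 2 without the 3 libraries. For MF-NIA against AL-NIA (0) it was 1, Ndufb10 lower, with array weights, with the compared groups alone and without the 3 libraries. For CR-NIA against MF-NIA (14) it was 9 with neqc of the signals (8 higher, 1 lower), 6 with quantile normalization (5 higher, 1 lower), 20 with array weights (19 higher, 1 lower) and 21 without the 3 libraries (20 higher, 1 lower). For CR-WIS against MF-WIS (1) it was 0 with no detection filter, 3 with the mean of the probes, 8 with array weights, 2 with the compared groups alone and 2 without the 3 libraries. For AL-WIS against AL-NIA and the interaction of restriction and diet (0 each) it was 1 and 2 without the 3 libraries. For CR-WIS against CR-NIA (4; 1 higher, 3 lower) it was 8 with array weights (3 higher, 5 lower), and the split was 2 and 2 with quantile normalization and 2 and 3 with neqc. The cause was not tested. Leaving out 1 library gave 4 (without AL-NIA replicate 4) to 14 (without CR-NIA replicate 1) for CR-NIA against AL-NIA, 1 (without AL-WIS replicate 1) to 14 (without AL-WIS replicate 6) for CR-WIS against AL-WIS, 8 (without MF-NIA replicate 3) to 16 (without CR-NIA replicate 1) for CR-NIA against MF-NIA, 0 (without MF-WIS replicate 4, among others) to 5 (without CR-WIS replicate 3) for CR-WIS against MF-WIS, 3 to 5 for CR-WIS against CR-NIA, and 0 to 0 for the other comparisons. Of the 36 calls, 8 held throughout, 22 were lost without 1 library, 26 in another setting, and 0 reversed. The labels do not say that a replicate number links mice of different groups. Over 79 pairs of the same number the median correlation of deviations was -0.01, and it was -0.01 over pairs of other numbers. Single pairs of the same number ran from -0.59 to 0.50, and 25 exceeded 0.1. A median over all pairs cannot exclude a link between some samples. With the replicate number as a block the counts were 3 for CR-NIA against AL-NIA, 1 for CR-WIS against AL-WIS, 9 for CR-NIA against MF-NIA and 0 for CR-WIS against MF-WIS. A slide block was not run, since the headers give no slide, and neqc gave no value for AL-NIA, whose signal columns were not used.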
